A study of Mus musculus with 4 samples.

Results

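The genes described here are 37 components and targets of the integrated stress response, 12 of them cytosolic aminoacyl-tRNA synthetases, among the 30282 genes of a poly(A) RNA-seq table from mouse embryonic stem cells. They were chosen by symbol, from a list of ATF4 pathway genes and cytosolic synthetases, and all 37 were found and tested. The cells were of the V6.5 line, carried RPB3 fused to the minimal auxin-inducible degron and GFP (labelled dRPB3), and were grown with inhibitors of GSK3 and MEK in medium supplemented with non-essential amino acids and L-glutamine. RPB3 is the product of Polr2c and belongs to the core of RNA polymerase II. Both groups received doxycycline at 1 µg/ml for 12 h, which induces the plant F-box protein TIR1. The untreated group (2 libraries) had nothing further, and in the IAA group (2 libraries) the auxin IAA followed at 500 µM for 12 h, per the sample labels, although another sentence of the protocol speaks of 1 h. No library with IAA but without the degron was analysed here, and the labels name no separate clones or cultures, so the p-values reflect only how these libraries vary, and that variation may be technical.

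The integrated stress response lowers general translation and reprogrammes gene expression when amino acids run short, unfolded proteins accumulate, haem is lacking or double-stranded RNA appears. Each of these stresses activates one of a family of kinases that phosphorylate the initiation factor eIF2, and this favours translation of Atf4 mRNA through upstream open reading frames. The ATF4 protein then raises transcription of genes for amino acid synthesis and uptake and for tRNA charging, often by binding a composite C/EBP-ATF element together with a C/EBP partner. Because much of the control of ATF4 lies in translation, the level of Atf4 mRNA does not measure the protein.

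The composite element can be spelled TGATGNAA (TTNCATCA on the other strand), and it was searched for near the start of each gene. RefSeq promoter windows of 300 bases (GRCm38.p6, 250 bases before to 50 after the annotated start) were at hand for 31 of the 37, and 11 of these, 35.5%, held the motif on either strand, against 4.51% of all 27025 genes with a window. Since the list was drawn up partly from known ATF4 targets, this share is a description of the list. The following stretches show the motif, in capitals, in some of the genes whose values are given below, on the strand of each gene and with mm10 coordinates.
Asns (chr6:7693214-7693243, minus strand): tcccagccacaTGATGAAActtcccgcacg
Pycr1 (chr11:120643833-120643862, minus strand): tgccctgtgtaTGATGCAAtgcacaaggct
Trib3 (chr2:152344028-152344057, minus strand): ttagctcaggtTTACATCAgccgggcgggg
Chac1 (chr2:119351038-119351067, plus strand): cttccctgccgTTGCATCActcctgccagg
Gars (chr6:55037960-55037989, plus strand): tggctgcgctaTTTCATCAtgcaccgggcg
Iars (chr13:49682126-49682155, plus strand): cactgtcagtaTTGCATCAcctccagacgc
Tars (chr15:11399655-11399684, minus strand): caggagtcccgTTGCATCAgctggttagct
Yars (chr4:129189895-129189924, plus strand): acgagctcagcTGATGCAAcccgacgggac
Counted from the RefSeq start, the motif began 23 bases before it in Asns, 193 before it in Chac1 and at base 15 after it in Trib3. The gene spans given below are those of GENCODE, whose starts for these genes differ from RefSeq's, so that by GENCODE the motif lies inside Asns and upstream of Trib3.

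Replicates differed little beyond counting error, which alone would give a chi-square of about 1 for each gene. It was 1.41 for the untreated pair, 1.24 for the IAA pair and 9.49 to 9.96 for pairs across groups. Recovered reads per library ranged from 8724737 to 9194432. Values are normalised read counts at the scaling of the deposited table, and fold changes are IAA over untreated on the log2(value + 1) scale, tested by limma over 14928 genes and called at an adjusted p under 0.05. Of these genes 39.9% were called, 11.1% higher and 28.9% lower, with a median log2 fold change of -0.11. With median-of-ratios factors, which centre the table by construction, 38.2% were called, 19.1% higher and 19.1% lower, and the median was -0.0049. Polr2c mRNA, which does not measure the degraded protein, had values of 2726 and 2885 in the untreated and 3242 and 3158 in the IAA libraries (log2 fold change 0.19, SE 0.04; limma adjusted p = 0.00116), a call lost when low genes were kept in (adjusted p = 0.0958) and in the authors' deposited table (adjusted p = 0.113). The 10 stem cell markers checked lay between 2966 and 12264 in every library, but 4 were called higher and 4 lower, and their share of all normalised reads was 0.636% and 0.638% in the untreated and 0.710% and 0.694% in the IAA libraries. Of 8 endoderm and mesoderm markers 5 were tested and 1, Eomes, was called higher, with sums of 355 and 364 in the untreated and 389 and 404 in the IAA libraries. Of 10 fibroblast feeder markers, 6 had values, none above 167, and their sum was 366 and 430 in the untreated and 301 and 309 in the IAA libraries, with Col3a1 at 0 to 2. Of the 4 tested, Thy1 (-0.78) and Col1a1 (-0.76) were called lower, and Fbn1 (-0.11) and Pdgfra (0.34) did not pass. The part of these marker changes in the results below was not tested. In bulk RNA, fewer cells of a type and less RNA per cell cannot be told apart.

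The stress response genes did not move as 1 group after IAA. Genes for amino acid synthesis and most cytosolic tRNA synthetases fell, and Atf4 mRNA gave no call. Atf5, Trib3, Sesn2, Slc7a1 and Eif2ak1 rose, with log2 fold changes from 0.14 (Sesn2) to 0.45 (Atf5). Altogether 5 of the 37 were called higher (13.5%, against 11.1% of all genes) and 19 lower (51.4%, against 28.9%), so that 64.9% were called, against 39.9% of all genes, and 13 did not pass. The median log2 fold change of the 37 was -0.19. Without the 12 synthetases, 5 of 25 were higher and 9 lower, both larger shares than the 11.1% and 28.9% of all genes. Their median of -0.04 lay above the -0.11 of all genes, whereas the -0.19 of the 37 lay below it. The groups did not overlap for 28 of the 37 (75.7%, against 68.1% of all genes tested), 7 with the IAA libraries higher and 21 with them lower. No member changed by a log2 fold change of 1 or more in either direction. With median-of-ratios factors 7 were higher (18.9%) and 15 lower (40.5%), against 19.1% of all genes in each direction and 38.2% called. In the authors' deposited table, 14 of the genes had an adjusted p under 0.05 and were lower and none was higher, against 12.0% called, 9.57% lower and 2.47% higher, of the 11495 genes with such a value there. The calls for lower that are not in the authors' deposited table are those of Eif2ak4, Nupr1, Ddit4, Aars and Tars.

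**Figure D1:**
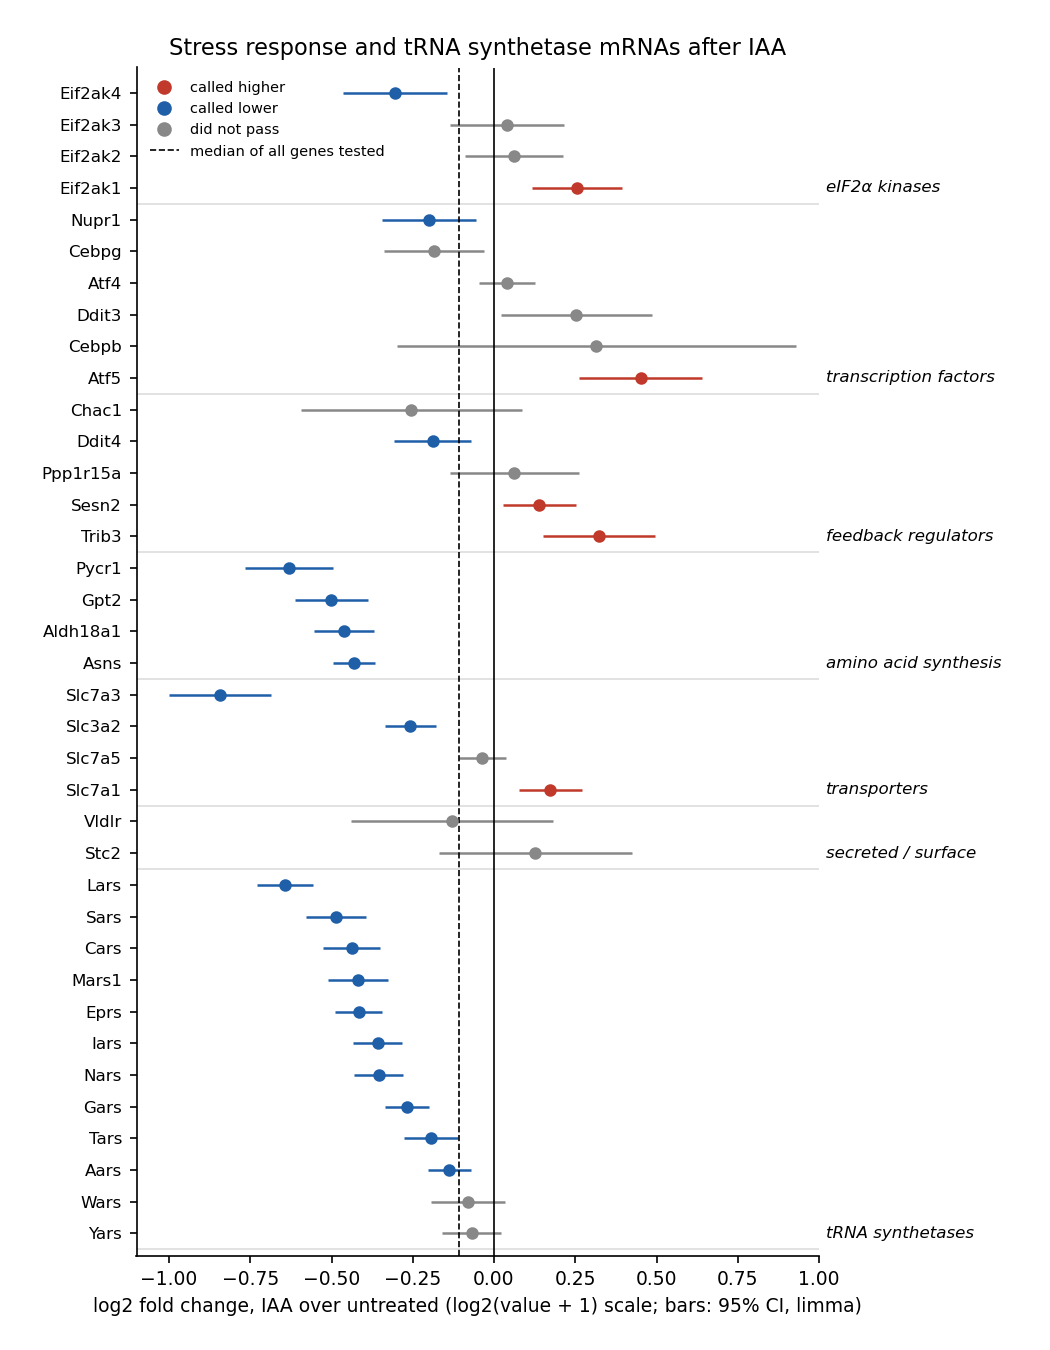
Log2 fold change (IAA over untreated, log2(value + 1) scale) of all 37 genes, ordered within each role, with limma 95% confidence intervals from 2 libraries per group; red is called higher, blue called lower and grey did not pass. The 4 amino acid synthesis genes lie between -0.63 and -0.43 and all 12 synthetases lie below 0, while the kinases, transcription factors and feedback regulators fall on both sides of 0; the dashed line is the median of all genes tested, -0.11.

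Of the 4 kinases that phosphorylate eIF2, 1 was higher, 1 was lower and 2 did not pass, a count too small to set apart from the 11.1% higher and 28.9% lower of all genes. Eif2ak1 (HRI, the haem-regulated kinase; chromosome 5, 143817788 to 143904251, GRCm38) read 573 and 549 in the untreated and 659 and 680 in the IAA libraries. Both IAA libraries lay above both untreated ones, and it rose by 19.3% (log2 fold change 0.25, SE 0.07; limma adjusted p = 0.00436). Of its annotated exon sequence 11.6% overlaps Aimp2 and Ankrd61 on the other strand, and without a known strand setting reads there cannot be told apart. Eif2ak4 (GCN2, which senses uncharged tRNA; chromosome 2, 118388618 to 118475234) read 466 and 484 in the untreated and 395 and 374 in the IAA libraries. Its groups did not overlap either, and it fell by 19.1% (-0.30, SE 0.08; adjusted p = 0.00343). Eif2ak2 (PKR, activated by double-stranded RNA) read 555 and 525 against 539 and 589, and Eif2ak3 (PERK, the sensor of the endoplasmic reticulum) read 388 and 368 against 366 and 413. The groups of these last genes overlapped, with log2 fold changes of 0.06 (95% confidence interval -0.09 to 0.21) and 0.04 (-0.13 to 0.22). Eif2ak1 and Eif2ak4 kept their calls with median-of-ratios factors, but their adjusted p in the authors' deposited table was 0.289 and 0.279.

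Among the transcription factors Atf5 rose and Nupr1 fell, whereas Atf4 itself showed no call. Atf4 (chromosome 15, 80255184 to 80257541) read 3415 and 3306 in the untreated and 3346 and 3560 in the IAA libraries. The groups overlapped, and the log2 fold change of 0.04 had a 95% confidence interval of -0.05 to 0.12 (SE 0.04; adjusted p = 0.486). Median-of-ratios factors gave 0.14 and a call for higher (adjusted p = 0.0122). Atf5, a relative of Atf4 that is also under translational control (chromosome 7, 44812256 to 44816658), read 269 and 301 in the untreated and 413 and 367 in the IAA libraries. It was the largest rise among the 37, from 285 ± 22.6 to 390.0 ± 32.5 (± SD of n = 2 in each group; a log2 fold change of 0.45, SE 0.09; adjusted p = 5.60e-04), with 8.2% of its exon sequence shared with genes on the other strand.

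Ddit3, the gene of the pro-apoptotic factor CHOP, read 192 and 166 in the untreated and 212 and 214 in the IAA libraries. The groups did not overlap, but the log2 fold change of 0.25 missed the threshold (SE 0.11; adjusted p = 0.0767) and passed it with median-of-ratios factors (adjusted p = 0.0178) and, on unrounded values, without untreated replicate 1 (adjusted p = 0.0272). Ddit3 and Mars1 lie tail to tail on chromosome 10 and share 68 annotated exon bases on opposite strands. Cebpb, the gene of the C/EBP beta partner, was read at 30 and 25 against 47 and 25, too few to separate the groups (0.32, 95% confidence interval -0.30 to 0.93). Cebpg, which encodes a dimer partner of ATF4, read 476 and 483 against 424 and 420. Its groups were apart, and its log2 fold change of -0.18 lay just outside the threshold (adjusted p = 0.0527). Nupr1, a small stress-induced chromatin protein gene, read 919 and 787 in the untreated and 753 and 727 in the IAA libraries and was called lower (-0.20, SE 0.07; adjusted p = 0.0261). That call was lost with median-of-ratios factors (-0.10) and, on unrounded values, without untreated replicate 1 (-0.09) or IAA replicate 2 (-0.18).

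**Figure D2:**
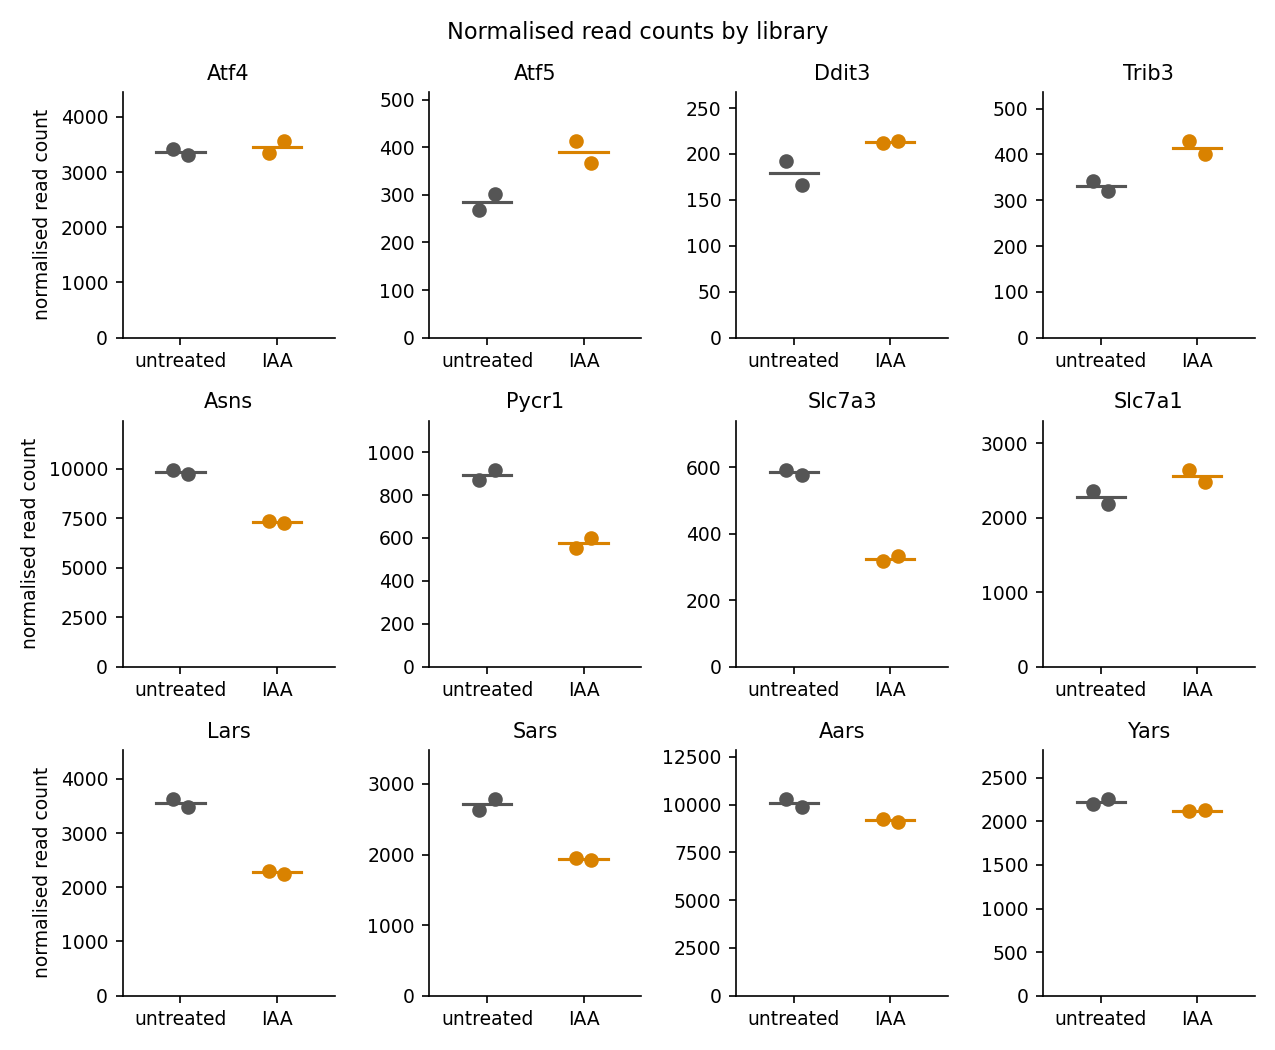
Normalised read counts in each library for 12 of the 37 genes; each point is 1 library, the bar is the mean of a group and every axis starts at 0. The groups overlap for Atf4, stand apart with the IAA libraries higher for Atf5, Ddit3, Trib3 and Slc7a1, and stand furthest apart, with the IAA libraries lower, for Slc7a3, Lars, Pycr1, Sars and Asns.

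The feedback and growth regulators moved in both directions. Trib3, a pseudokinase gene and classical target of ATF4 and CHOP (chromosome 2, 152337422 to 152344032), read 343 and 320 in the untreated and 429 and 401 in the IAA libraries. The groups did not overlap, and it rose from 331.5 ± 16.3 to 415 ± 19.8 (± SD of n = 2 in each group; a log2 fold change of 0.32, SE 0.08; adjusted p = 0.00389). Sesn2, whose protein restrains mTORC1 when leucine is low, read 1360 and 1302 against 1528 and 1407 and rose by 10.3% (0.14, SE 0.05; adjusted p = 0.0426), a call lost on unrounded values without untreated replicate 2 (0.11) or IAA replicate 1 (0.08). Ddit4 (REDD1, another inhibitor of mTORC1) read 1136 and 1238 against 1059 and 1022 and was called lower (-0.19, SE 0.06; adjusted p = 0.0118). With median-of-ratios factors the value for Ddit4 was -0.09 and not called, nor was it on unrounded values without untreated replicate 2 (-0.13) or IAA replicate 2 (-0.16).

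Chac1, which encodes a glutathione-degrading enzyme strongly induced by ATF4, was led by a single library. It read 150 and 102 in the untreated and 105 and 102 in the IAA libraries, so that untreated replicate 1 stood alone above the other three. The log2 fold change of -0.26 (SE 0.16) did not pass. On unrounded values it was 0.02 without untreated replicate 1 and -0.53, with a call, without untreated replicate 2. Ppp1r15a (GADD34, the inducible subunit of the eIF2 phosphatase) read 249 and 243 against 257 and 257 (0.06, 95% confidence interval -0.13 to 0.26). Of the 5 genes in this role, 2 were higher, 1 was lower and 2 did not pass.

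All 4 amino acid synthesis enzymes fell, with a median log2 fold change of -0.48. Asns, which makes asparagine and is among the most used reporters of ATF4 activity (chromosome 6, 7675169 to 7693254), read 9933 and 9754 in the untreated and 7337 and 7262 in the IAA libraries. From 9843.5 ± 126.6 it dropped to 7299.5 ± 53.0 (± SD of n = 2 in each group; log2 fold change -0.43, SE 0.03; adjusted p = 3.29e-09). Its promoter is the first of those shown above. Pycr1, the last enzyme of mitochondrial proline synthesis (chromosome 11, 120635712 to 120643769), read 870 and 916 against 555 and 598 and fell by 35.4% (-0.63, SE 0.06; adjusted p = 2.62e-07). Aldh18a1, which carries out the first steps of the same route from glutamate, read 2384 and 2377 against 1756 and 1704 (-0.46, SE 0.04). Gpt2, the mitochondrial alanine aminotransferase, read 2111 and 1907 against 1460 and 1378 (-0.50, SE 0.05). For each of these genes the groups stood well apart. All 4 remained called under median-of-ratios scaling (median -0.38) and in the authors' deposited table, where the largest of their adjusted p was 1.47e-04.

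The amino acid transporters went different ways. Slc7a3, a cationic amino acid transporter with restricted tissue expression (X chromosome, 101079210 to 101086020), read 592 and 578 in the untreated and 318 and 333 in the IAA libraries. This was the largest change of all 37, from 585 ± 9.90 to 325.5 ± 10.6 (± SD of n = 2 in each group; a log2 fold change of -0.84, SE 0.08; adjusted p = 4.84e-08). Slc7a1, the broadly expressed transporter of the same substrates (chromosome 5, 148327410 to 148399904), read 2355 and 2190 against 2640 and 2486. Its groups did not overlap and it rose (0.17, SE 0.05; adjusted p = 0.00576), a call lost without IAA replicate 1 on unrounded values (0.13). The 2 chains of the large neutral amino acid transporter also differed in their calls. Slc7a5, the light chain LAT1, read 6484 and 6191 against 6210 and 6145, with overlapping groups (-0.04, 95% confidence interval -0.11 to 0.04), whereas Slc3a2, the heavy chain CD98 shared with other transporters, read 4797 and 4572 against 3916 and 3915 and fell (-0.26, SE 0.04; adjusted p = 1.81e-05). Whether the 2 chains differ from each other was not tested. Vldlr, a lipoprotein receptor gene, and Stc2, which encodes a secreted glycoprotein, were read at 91 to 111 and 121 to 159, and neither passed (-0.13 and 0.13).

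Of the 12 cytosolic tRNA synthetases 10 fell (83.3%, against 28.9% of all genes), and Wars and Yars had no call. Their median log2 fold change was -0.36 and none was higher. These enzymes load each tRNA with its amino acid. Median-of-ratios factors left 8 lower (66.7%, against 19.1% of all genes) and a median of -0.26. The authors' deposited table also has 8 lower (66.7%, against 9.57% of all genes there). At a mean of at least 100, 10 of the 12 were lower, against 3754 of 9727 genes. Lars, the leucyl enzyme (chromosome 18, 42202298 to 42262194), changed most and read 3627 and 3482 in the untreated and 2307 and 2245 in the IAA libraries. It fell by 36.0% (-0.64, SE 0.04; adjusted p = 6.79e-10). Sars, the seryl enzyme (chromosome 3, 108424865 to 108445209), read 2636 and 2785 against 1949 and 1922 (-0.49, SE 0.04; adjusted p = 6.26e-08). In both genes the lowest untreated library was far above the highest IAA library.

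Cars (cysteinyl, -0.44), Mars1 (methionyl, -0.42), Eprs (the fused glutamyl and prolyl enzyme, -0.42), Iars (isoleucyl, -0.36), Nars (asparaginyl, -0.35) and Gars (glycyl, -0.27) fell by intermediate amounts. Their adjusted p ran from 1.79e-08 for Eprs to 2.18e-06 for Gars. Eprs, for example, read 5952 and 6033 against 4497 and 4480, and Cars 2745 and 2693 against 2001 and 2012. The smallest calls were Tars (threonyl, -0.19) and Aars (alanyl, -0.14), which were lost with median-of-ratios factors (-0.09 and -0.04) and were absent in the authors' deposited table, where their adjusted p was 0.0829 and 0.119. Aars read 10291 and 9894 against 9271 and 9083, the most reads of the 37, and 15.1% of its exon sequence overlaps other annotated genes, chiefly Exosc6 on the same strand. Wars (tryptophanyl) read 1335 and 1389 against 1344 and 1235, with overlapping groups (-0.08, 95% confidence interval -0.19 to 0.03). Yars (tyrosyl) read 2201 and 2256 against 2116 and 2135, groups that did not overlap but were too close to pass (-0.07, -0.16 to 0.02). The values of Wars and Yars turned to 0.02 and 0.03, not called, with median-of-ratios factors.

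Synthetase genes outside the list were uneven too, with 5 of the other 8 cytosolic ones lower, 3 without a call and a median of -0.22. Vars, the valyl enzyme, had the largest change of these 20 genes, 3242 and 3426 against 2020 and 1977 (-0.74, SE 0.04; adjusted p = 2.00e-10). Of the 3 scaffold proteins that hold several synthetases in a complex, only Aimp1 passed (-0.18), and it did not with median-of-ratios factors (-0.08). The mitochondrial synthetases, encoded by separate nuclear genes, had 9 of 17 lower (52.9%, against 28.9% of all genes) and none higher, with a median of -0.29. The authors' deposited table has 3 of the 17 lower (17.6%, against 9.57% of all genes there). With median-of-ratios factors the mitochondrial list had 7 lower (41.2%) and 3 higher (17.6%), against 19.1% of all genes in each direction.

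Synthetases with and without the motif were also set side by side. The 5 synthetases of the list whose promoter window held it (Aars, Gars, Iars, Tars and Yars) had a median log2 fold change of -0.19 and 4 calls, and the 3 with a window that lacked it (Eprs, Mars1 and Sars) had -0.42 and 3 calls. Outside the list, the 5 cytosolic synthetases with a window that lacked it had a median of -0.30, from -0.59 to -0.04, and 4 calls. Among all 31 genes of the list with a window, those with the motif had 1 higher and 7 lower of 11, and those without had 4 higher and 8 lower of 20. Here the order of the medians was the reverse, -0.20 with the motif and 0.04 without it. These groups are small and were formed after the values of the genes were known, so no test was made. A window without these letters says nothing about binding further away or about other spellings of the element.

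**Figure D3:**
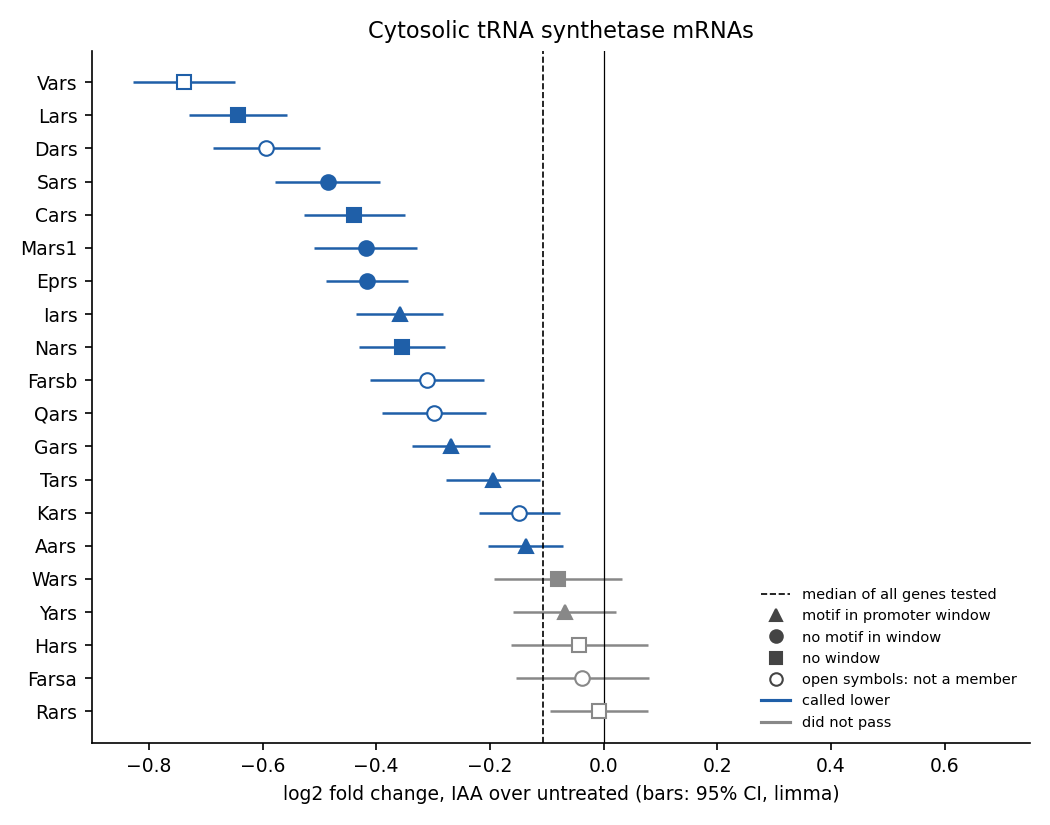
Log2 fold change with limma 95% confidence interval of the 20 cytosolic synthetase genes, the 12 of the list as filled symbols and the other 8 as open ones; triangles have the motif in the promoter window, circles have a window without it and squares have no window. The triangles lie between -0.36 (Iars) and -0.07 (Yars), to the right of the filled circles at -0.49 to -0.42. The 5 open circles span -0.59 to -0.04, a range that holds all the triangles. No interval lies wholly above 0.

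Levels per length show which of these mRNAs dominate. In the untreated libraries Asns had 3599 normalised reads per kilobase of annotated exon sequence, followed by Gars (2478), Slc7a5 (1709), Atf4 (1425), Slc3a2 (1327) and Nars (1286). The synthetases lay between 331 (Eprs) and 2478. The 4 eIF2 kinases lay between 62.7 and 105.6 and the lowest of all were Stc2 (24.5), Cebpb (18.3) and Vldlr (10.6). Exon length here joins all annotated transcripts, so a gene with long unused ends is understated. The 12 synthetases together took 0.542% and 0.523% of all normalised reads in the untreated and 0.464% and 0.463% in the IAA libraries, and the 4 synthesis enzymes 0.154% and 0.148% against 0.118% in both. The shares of the feedback regulators were 0.0327% and 0.0317% against 0.0360% and 0.0345%. Those of the kinases were 0.01999% and 0.01906% against 0.02088% and 0.02225%, and those of the transcription factors 0.05347% and 0.05014% against 0.05538% and 0.0575%. In these comparisons of shares the groups did not overlap. The summed normalised reads of the feedback regulators did overlap (3238 and 3205 against 3378 and 3189). So did those of the kinases (1982 and 1926 against 1959 and 2056) and transcription factors (5301 and 5068 against 5195 and 5313). Shares overlapped for the transporters (0.143% and 0.134% against 0.140% and 0.139%) and for the pair of secreted and surface proteins. The transporter sums did not overlap (14228 and 13531 against 13084 and 12879). Size factors do not change a share, but taking shares is itself a scaling, to the same total in each library. With that scaling the median log2 fold change of all genes was -0.0006, against -0.11 at the deposited scaling.

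Other parts of the pathway were read from lists chosen, like the 37 genes, with earlier results of these data known. The 6 ATF4-dependent enzymes of serine, glycine and one-carbon metabolism all fell, with a median of -0.48, and median-of-ratios factors left 5 of them lower. Of these Aldh1l2, a mitochondrial folate enzyme, changed most and was read at 50 and 52 against 37 and 31 (-0.58, SE 0.23; adjusted p = 0.0476), a call lost with median-of-ratios factors (-0.49). On unrounded values it was also lost without untreated replicate 1 (-0.61), untreated replicate 2 (-0.56) or IAA replicate 2 (-0.46). A further 22 ATF4 targets had 2 higher (9.1%) and 8 lower (36.4%) with a median of -0.13, near the 11.1%, 28.9% and -0.11 of all genes. Sqstm1, an autophagy receptor gene, rose (2240 and 2494 against 3007 and 2851; 0.31, SE 0.05). Nars2, which is also counted among the mitochondrial synthetases above, fell from 186 and 180 to 112 and 147 (-0.51, SE 0.13). Its fall was not called without IAA replicate 1 on unrounded values (-0.31) or in the authors' deposited table (adjusted p = 0.270). Of the 19 with a promoter window in that list, 6 held the motif, and of those 1 was lower and 5 did not pass.

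The genes of eIF2, its exchange factor eIF2B and their regulators had 3 higher (15.8%) and 9 lower (47.4%) of 19, against 11.1% and 28.9% of all genes, with a median of -0.13. At a mean of at least 100 the counts of this list were the same, against 1503 higher and 3754 lower of 9727 genes. Under median-of-ratios scaling 7 were higher and 2 lower, where the split of all genes also moved, to 19.1% each. The list's median minus that of all genes was -0.03 under either scaling. Ppp1r15b, the constitutive subunit of the eIF2 phosphatase, rose (1983 and 2059 against 2628 and 2458; 0.33, SE 0.05; adjusted p = 1.01e-05). Eif2a, an initiation factor distinct from the eIF2 subunits, fell (1877 and 1894 against 1467 in both; -0.36, SE 0.05; adjusted p = 3.96e-06). Median-of-ratios factors left the direction of both as it was.

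**Figure D4:**
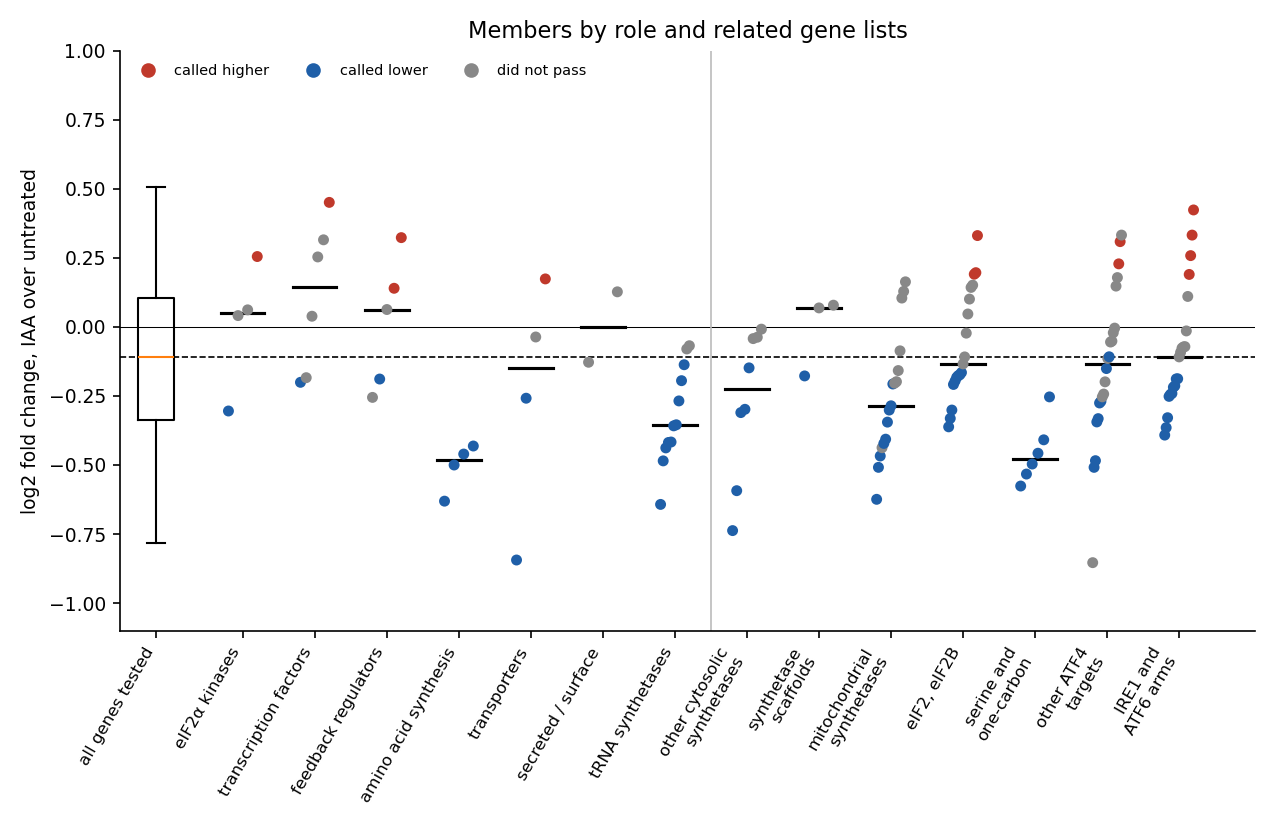
Log2 fold change of each gene by role, left of the vertical line, and of the related lists, right of it; each point is 1 gene (red called higher, blue called lower, grey did not pass), bars are medians and the box shows all genes tested with its quartiles and the 5th and 95th percentiles. The medians of the amino acid synthesis genes (-0.48), the serine and one-carbon genes (-0.48) and the synthetases of the list (-0.36) lie below the dashed median of all genes (-0.11), and those of the kinases, transcription factors and feedback regulators lie above it, at 0.05 to 0.15.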

How the data were processed

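Poly(A) libraries were prepared from total RNA of 2 untreated and 2 IAA samples, and each library's group came from its title. DESeq2, featureCounts, STAR, Bowtie2, cutadapt 1.18, SAMtools and deepTools stand in the submitters' processing notes with builds mm10 and dm6, but no role is stated for any. The sources used here do not give the annotation, the strand setting or whether the size factors came from the Drosophila spike-in. Per library, the authors deposited a score that the values show to be a rounded read count over a size factor. The deposited mean is an unrounded signal, and from it the factors came out as 0.88, 0.87, 0.98 and 0.95 and whole reads for 100% of genes (tolerance 0.001). Per the file headers, the authors deposited log2 fold changes, a test statistic, and p-values raw and adjusted.

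Genes with a mean of at least 10 (14928; 15354 were left out) were tested with limma 3.58.1 (R 4.3.3; trended empirical Bayes) on log2(value + 1), with Benjamini-Hochberg adjustment over all of them, using code tested on simulated data. The log scale understates changes of low genes. No count test was run on the rounded values. Voom on recovered reads stood in for it. The members and gene lists were chosen with earlier results of these data known. A gene held by 2 of the lists counts under both. Named genes are the members, Polr2c and, per related list, the called gene with the largest rise and the largest fall, and any others were named after their values were seen. Alternatives were the pseudocount, the filter, each library left out, a replicate block, other scalings, voom and the authors' own tests. Unrounded values were an alternative chosen once the data had been seen. Coordinates and exon overlaps are those of GENCODE M21 on GRCm38 (mm10), and promoters are from RefSeq on GRCm38.p6. The precision is set by 8724737 to 9194432 reads per library and 2 libraries per group. Some items are not reported here.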

Additional observations from a re-analysis of the deposited data

How the results depend on the processing

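With pseudocounts of 0.5 and 5, voom and unrounded values, every member kept its call. The replicate number used as a block changed no member's call (5 higher and 19 lower members; 1647 higher and 4311 lower of all genes), and same-numbered libraries did not deviate together (correlation -0.06 over 9727 genes), so the numbers were not taken to pair the libraries. With no filter on low values 179 genes were higher and 638 lower, and 0 and 12 members; the cause was not tested. At a mean of at least 100, 1503 of 9727 genes were higher and 3754 lower, and 5 and 20 of 36 members, with Cebpg also called lower. The 11.1% and 28.9% of all genes set beside the lists come from the lower filter, and both shares were larger here.

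Median-of-ratios factors gave 2850 higher and 2853 lower genes (3036 and 3054 on unrounded values), so 50% of calls were higher in place of 27.7%, and equal totals gave 2844 and 2731; members were then 7 higher and 15 lower (16 with unrounded median-of-ratios values). In the authors' deposited table, 284 genes were higher and 1100 lower, with 0 and 14 members. Leaving out any library left 0 calls on the deposited values, for all genes and for members in both directions. There 361 to 372 genes had no spread at all within the remaining pair, because of rounding, against 1 or 2 on unrounded values, and there 1146 to 1608 genes were higher, 3471 to 3939 lower, and 3 to 6 members higher and 17 to 19 lower.

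Signs turned only in members that had not passed. With median-of-ratios factors, the same on unrounded values, and equal totals, Slc7a5 had 0.0642, 0.0642 and 0.068, Wars 0.0207, 0.0206 and 0.0241, and Yars 0.0325, 0.0323 and 0.036. Without IAA replicate 2 Eif2ak2 had -0.00211 (-0.00252 unrounded), Eif2ak3 -0.0459 (-0.0433) and Atf4 -0.00605 (-0.00598), without IAA replicate 1 Cebpb -0.127 (-0.11) and Stc2 -0.0686 (-0.0665), and without untreated replicate 1 Chac1 0.0207 (0.018). With each library left out in turn, the deposited values reached 0.126 for Eif2ak2, 0.128 for Eif2ak3, 0.0834 for Atf4, 0.758 for Cebpb, 0.323 for Stc2 and -0.531 for Chac1. Depth limits Cebpb, Vldlr, Stc2 and Chac1 most.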

Other observations

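The other arms of the unfolded protein response, run by IRE1 and ATF6, had 4 higher (19.0%) and 10 lower (47.6%) of 21 genes, against 11.1% and 28.9% of all genes, with a median log2 fold change of -0.11, equal to that of all genes tested. At a mean of at least 100 the counts of this list were the same, against 1503 higher and 3754 lower of 9727 genes. Dnajb9, a chaperone gene under XBP1, rose (151 and 148 in the untreated against 193 and 209 in the IAA libraries; 0.42, SE 0.11; limma adjusted p = 0.00558), a call lost without IAA replicate 2 on unrounded values (0.36) and in the authors' deposited table (adjusted p = 0.338). Sdf2l1, which encodes another resident of the endoplasmic reticulum, fell (317 and 316 against 241 in both; -0.39, SE 0.09; adjusted p = 0.00176), which was not called in the authors' deposited table (adjusted p = 0.241). With median-of-ratios factors 4 were higher and 7 lower. Hspa5, the gene of the chaperone BiP, was named after its values were seen and was called lower (-0.24, and -0.14 with median-of-ratios factors).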
